A study of Homo sapiens with 18 samples.

Results

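The baseline transcriptomes of 2 human cell lines were set side by side: 3 libraries of LX-2, a hepatic stellate cell line, and 3 libraries labelled LV5, listed as the colorectal carcinoma line SW480. These 6 of the 18 libraries of the series were chosen because each group is the control of its own experiment. Genes were joined by Ensembl identifier, and 27130 were listed in both deposited tables. Of these, 15847 reached 1 TPM (a share of each library's transcripts, corrected for gene length) in at least 3 of the 6 libraries and were compared.

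The LX-2 controls (EV-XP-LX-2) had been incubated with control extracellular vesicles for 48 hours, so they are vesicle-exposed and not naive cells, and what XP stands for is not stated. LV5 is the control of LV5-NID1, a line that overexpresses NID1 and was kept for 72 hours in GW4869, a neutral sphingomyelinase inhibitor that lowers vesicle release. Whether LV5 itself received GW4869 is not stated. The matching treated groups, EV-XP-NID1-LX-2 (LX-2 given vesicles carrying NID1) and LV5-NID1, with 3 libraries each, served as further libraries of the same lines, and SW480-P (parental SW480) and SW480-LM3 (SW480 after 3 rounds of selection in vivo) come from another table in another unit. Libraries were poly(A)-selected. Nothing says that replicates were separate cultures, and an SD here covers only the spread between 3 libraries, which may be technical. Line, vesicle exposure and sequencing run all differ between the groups and cannot be told apart, so differences are given as sizes, with no test. In bulk RNA, fewer cells expressing a gene and less RNA per cell cannot be told apart either.

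Hepatic stellate cells are the liver's pericyte-like mesenchymal cells. When activated they turn into contractile myofibroblasts that lay down collagen, remodel it with proteases and release inflammatory mediators, and in metastasis they form part of the stroma that tumour cells meet. Colorectal carcinoma cells derive from the gut epithelium, whose identity rests on keratins, on junctions built from cadherins, claudins and desmosomes, and on apical mucins and enzymes.

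The label of each line was checked against marker genes. In EV-XP-LX-2, 13 of 17 stellate and mesenchymal markers reached a mean of 1 TPM, and the list summed to 2883 to 3061 TPM per library. PRRX1, HGF and LRAT (the retinol-storing enzyme of quiescent stellate cells) were below 1 TPM, and DES was not listed. In LV5, 8 of the 17 reached 1 TPM, with a sum of 614 to 645 TPM. VIM made up most of both sums, and 9 of the 17 reached 10 TPM in EV-XP-LX-2 against 3 in LV5. Of 15 colon epithelial markers, LV5 held 4 at 1 TPM or more, namely EPCAM, KRT8, KRT18 and KRT19, and the list summed to 1634 to 1673 TPM against 248 to 261 TPM in EV-XP-LX-2. KRT8 and KRT18 were the only 2 of the 15 to reach 10 TPM in either line, so both sums are nearly all theirs. CDH1, CDH17, KRT20, CDX1, CDX2, VIL1, LGALS4, CEACAM5, HNF4A and ESRP1 were all below 1 TPM in LV5, and GPA33 was not listed. CDH1, which encodes E-cadherin, read 0.58, 0.71 and 0.58 TPM, and the intestinal regulator CDX2 read 0.16, 0.14 and 0.23 TPM. In the other SW480 libraries of the series, 9 of the 15 markers reached a signal of 1 in SW480-P and 12 of 15 in SW480-LM3, and CDX2 was at 16.4 ± 2.66 and 17.7 ± 1.975 in that unit. The libraries labelled LV5 therefore carry simple-epithelium keratins without most of the colon-specific markers, and the name LV5 is used below for the libraries so labelled.

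Replicates were close in both lines. Correlations of log2(TPM + 1) between libraries, taken across genes, which are not independent, were 0.9912 to 0.9924 in EV-XP-LX-2 and 0.9928 to 0.9945 in LV5. The median coefficient of variation was 4.14% and 5.57%. Mitochondrially encoded mRNAs took 6.06% ± 0.11 of TPM in EV-XP-LX-2 and 14.2% ± 1 in LV5. TPM keep no record of read depth, and intervals for counting error cannot be had from them.

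A gene was counted as strongly different where the mean of log2(TPM + 1) differed by at least 3 (8-fold) and every library of 1 line lay above every library of the other. By this rule 578 genes were higher in LX-2 (3.65% of those compared) and 382 were higher in LV5 (2.41%). Absence of overlap by itself was common, at 86.9% of genes, and 56.7% lay within 2-fold. The median gene read 0.46 higher in LX-2 on the log2 scale. Scaling by the median ratio of genes brought that median to -0.01 and turned the balance of the counts, from 60.2% of strongly different genes higher in LX-2 to 45.6%. Quantile normalization gave 45.9%. The overall balance between the lines thus depends on scaling. A gene that reached 1 TPM through 1 line alone had to lie higher in that line, though not necessarily by 8-fold. Counts below therefore describe the compared members of a list and not the list.

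**Figure D1:**
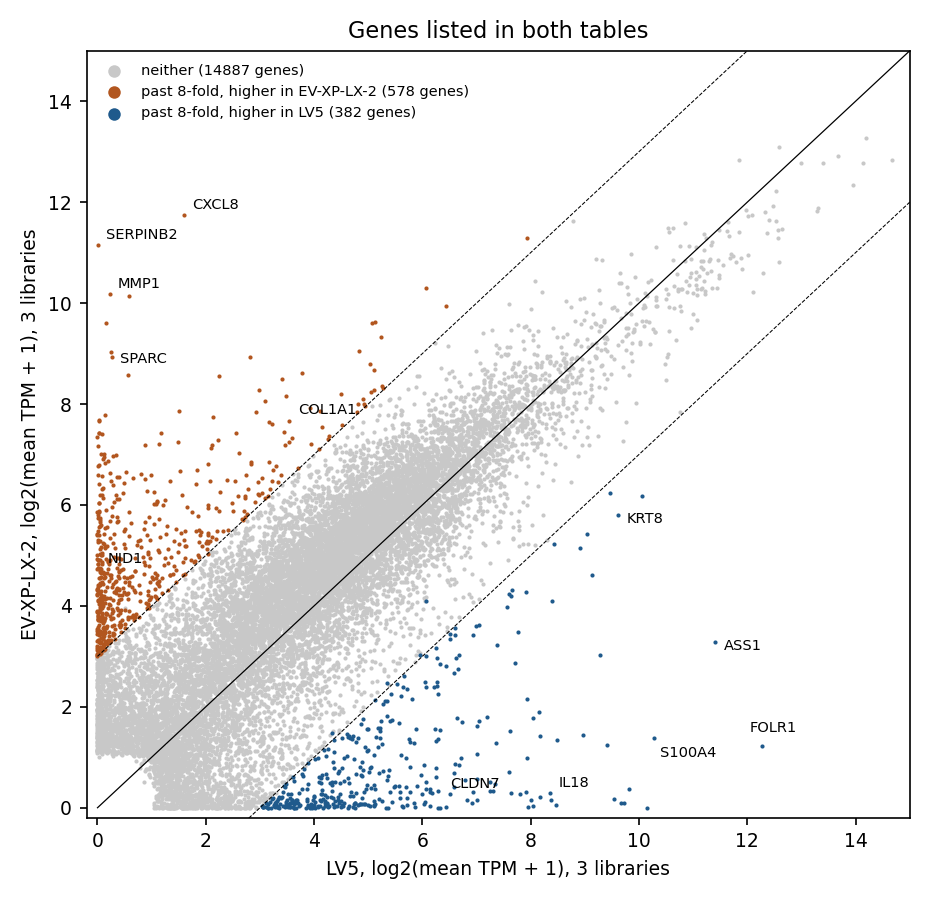
Mean level of each of the 15847 compared genes in LV5 (horizontal) and EV-XP-LX-2 (vertical), as log2(mean TPM + 1) over 3 libraries; the solid line marks equal levels and dashed lines an 8-fold difference. Coloured points are the 578 genes higher in LX-2 and the 382 higher in LV5, and those at the far corners, such as SERPINB2 and FOLR1, are near 0 in the other line.

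The treated libraries of the same tables gave a like picture. EV-XP-NID1-LX-2 against LV5-NID1 had 563 genes past 8-fold in favour of LX-2 (3.59% of 15699) and 337 in favour of LV5-NID1 (2.15%). Of the 578 control-library genes, 468 passed again (81%), as did 295 of the 382 (77.2%). By direction alone, 577 of 578 and 379 of 382 lay on the same side without overlap, the exceptions being NID1 on the LX-2 side and HIST2H2AA4, NAPRT and SNHG19 on the LV5 side. Absence of overlap was common among all compared genes, at 86.9% in the control libraries. These genes had also been chosen as far apart in the same lines and runs, so the count by direction adds little. The same 8-fold rule applied within a line found 0 of 14899 genes (0%) between the LX-2 groups and 2 of 14449 (0.0138%) between the LV5 groups, NID1 and AC006435.4.

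The 12 genes with the largest excess in LX-2, among those with at least 50 TPM there, were SERPINB2, CXCL8, MMP1, IL1B, UCHL1, GREM1, SPARC, CLDN11, CXCL1, ABI3BP, CSF2 and MEG3. SERPINB2 (ENSG00000197632), which encodes plasminogen activator inhibitor 2, read 2158, 2455 and 2212 TPM in LX-2 and 0, 0 and 0.02 TPM in LV5. UCHL1, a deubiquitinase best known from neurons, read 779, 769 and 781 TPM in LX-2 against 0.12, 0 and 0.22 TPM. GREM1, a secreted antagonist of bone morphogenetic proteins, read 538, 524 and 509 TPM against 0.19, 0.19 and 0.2 TPM. In all of these the lowest LX-2 library stood far above the highest LV5 library. MEG3, an imprinted long noncoding RNA, was at 170.2 ± 2.94 TPM in LX-2 and at 0.0133 ± 0.0231 TPM in LV5.

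On the LV5 side, the corresponding 12 were FOLR1, RPL39P3, RPL9P9, RPL9P8, CRIP1, S100P, S100A4, SLPI, ALPL, EEF1A2, ASS1 and IL18. FOLR1 (ENSG00000110195), the folate receptor alpha, read 4932, 4906 and 5045 TPM in LV5 and 0.99, 1.1 and 1.88 TPM in LX-2, a ratio of means of 3749. It was the fifth most abundant gene in LV5 outside the mitochondrially encoded and ribosomal protein genes. S100P and S100A4, small calcium-binding proteins, were at 742.2 ± 26.7 and 1240 ± 71.6 TPM in LV5 against 0.133 ± 0.231 and 1.59 ± 0.618 TPM in LX-2. S100A4 is often used as a fibroblast marker, and here the mesenchymal line was the low one. The secreted protease inhibitor SLPI stood at 351.7 ± 3.03 TPM in LV5 and 0.0433 ± 0.0751 TPM in LX-2.

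The 3 pseudogenes in that group need care, because they are near-identical copies. The ribosomal protein gene RPL9 was at 2517 ± 13.6 TPM in LX-2 and 244.3 ± 19.6 TPM in LV5, while RPL9P8 and RPL9P9 were at 0.0633 TPM in LX-2 and 812.2 ± 115.2 and 841.8 ± 170 TPM in LV5. Added up, RPL9 and both copies came to 2517 ± 13.9 TPM in LX-2 and 1898 ± 86.0 TPM in LV5. The single genes differed by more than 8-fold and their sum did not. RPL39P3 was listed at 0 in every LX-2 control library and averaged 1128 ± 256.7 TPM in LV5, while RPL39 was at 3557 ± 86.8 and 5114 ± 3.54 TPM. RPL9 and these pseudogenes are therefore uncertain, and how reads were shared between copies was not tested.

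Among mesenchymal and stellate transcription factors, 21 of 31 were compared, 6 were strongly higher in LX-2, 1 in LV5 and 14 in neither, with a list median of 1.55 on the log2 scale against 0.46 for all genes. Over all genes 3.65% were strongly higher in LX-2 and 2.41% in LV5. With median-ratio scaling 4 of these factors stayed past 8-fold in favour of LX-2. FOXD1, a forkhead factor of stromal progenitors, read 78.3, 75.2 and 77.4 TPM in LX-2 against 1.15, 1.1 and 0.4 TPM in LV5. TBX18, a mural cell T-box factor, was at 25.9 ± 1.26 TPM against 0.0333 ± 0.0404 TPM. TWIST2, ZEB2, TBX2 and the osteoblast regulator RUNX2 were the other 4 on the LX-2 side, with ratios of 19.96 for TWIST2, 12.7 for ZEB2 and 28.5 for RUNX2. The exception was FOXF2, a forkhead factor of gut mesenchyme, which read 46.5, 49.7 and 49.1 TPM in LV5 and no more than 0.04 TPM in any LX-2 library.

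Of 28 gut and epithelial transcription factors, 13 were compared, and 8 were listed for the LV5 groups only and could not be. None was strongly higher in LX-2, 2 were strongly higher in LV5 and 11 were in neither group, with 1 in LV5-NID1 by the same rule. The shares over all genes were 3.65% in LX-2 and 2.41% in LV5. ELF3, an epithelial ETS factor, read 72.4, 75.9 and 83.2 TPM in LV5 against 0.28, 0.13 and 0.39 TPM in LX-2. PITX1, a hindlimb homeobox factor also expressed in epithelia, was at 39.5 TPM in LV5 and 2.53 TPM in LX-2. ESRP2, which drives epithelial splicing, was 47.4 times higher in LV5, whereas its paralogue ESRP1 was below 1 TPM in both lines.

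Among structural epithelial genes of the keratin and desmosome lists, the strongly different members were all higher in LV5. Over all genes 2.41% were strongly higher there. At 4-fold, 5 keratins were higher in LV5 and 2 in LX-2. Of 21 keratins 12 were compared and 3 were strongly higher in LV5: KRT8 at 779.9 ± 17.2 against 54.8 ± 2.34 TPM, KRT7 at 556.8 ± 28.9 against 23.6 ± 1.89 TPM, and KRT17 at 193.8 against 0.63 TPM. KRT18, the partner of KRT8 in simple epithelia, was 4.33 times higher in LV5 and stayed below the 8-fold mark because LX-2 itself held 198.7 ± 5.43 TPM. Of 9 compared desmosomal genes 3 were strongly higher in LV5: JUP (plakoglobin) read 300, 296.7 and 268.7 TPM against 1.61, 1.9 and 1.53 TPM, DSP (desmoplakin) was 11.6 times higher, and PPL (periplakin) was at 19.4 against 0.137 TPM. None was strongly higher in LX-2.

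Tight junction genes were divided. CLDN7 was at 112.3 ± 3.46 TPM in LV5 and 0.11 ± 0.11 TPM in LX-2, and CLDN4 was 13.5 times higher in LV5. CLDN11, the claudin of myelin and Sertoli cells, ran the other way, with 378.9, 396.4 and 361.5 TPM in LX-2 and 0.2, 0.55 and 0.66 TPM in LV5. Occludin (OCLN), a core tight junction protein, was also higher in LX-2, at 35.2 ± 0.694 against 2.09 ± 0.356 TPM. In all, 3 of 21 compared cadherin and tight junction genes were strongly higher in LX-2 and 2 in LV5, against 3.65% and 2.41% of all genes. The LV5 count fell to 1 without EV-XP-LX-2 replicate 2, where CLDN4 was short of the mark.

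Of 33 gut surface and secreted markers, 24 could not be compared because they were low or were missing from a table. Of the 9 compared, 7 were strongly higher in LV5, against 2.41% of all genes. Most of these passed the 1 TPM filter only through LV5, so they had to lie higher there, though not necessarily by 8-fold. The count says nothing of the list as a whole. The transmembrane mucin MUC13 read 240.5, 240.9 and 236.3 TPM in LV5 against 0.06, 0.49 and 0.16 TPM in LX-2. MUC1 was 57.0 times higher in LV5. The intestinal alkaline phosphatase ALPI was at 33.3 ± 1.81 TPM in LV5, and the placental form ALPP, which is closely similar in sequence, was at 261.1 ± 12.04 TPM, so reads may be divided between them. ALPL, the tissue-nonspecific form, was at 332.3 ± 17.6 TPM, and LX-2 held 0.117 TPM or less of all 3.

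Of 16 compared contractile genes 3 were strongly higher in LX-2, none in LV5 and 13 in neither. Over all genes the shares were 3.65% in LX-2 and 2.41% in LV5. TAGLN (transgelin) read 289.4, 289.1 and 280.6 TPM against 9.77, 9.44 and 11.1 TPM, and ACTG2 and CNN1 were at 21.4 ± 3.57 and 9.32 ± 0.591 TPM in LX-2 and below 0.3 TPM on average in LV5. ACTA2, the alpha smooth muscle actin by which activated stellate cells are recognised, was low in both lines, at 14 ± 0.202 and 6.37 ± 0.520 TPM. Vimentin (VIM) was 3.2 times higher in LX-2 but still at 589.6 ± 12.6 TPM in LV5. Of the 18 compared stellate and fibroblast markers 14 were in neither group. THY1 and NT5E were strongly higher in LX-2, with ratios of 296 and 34.7, and S100A4 and MCAM in LV5. MCAM, an adhesion molecule of pericytes and endothelium, was matched by identifier because both tables give it a clone name, and stood 12.7 times higher in LV5.

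**Figure D2:**
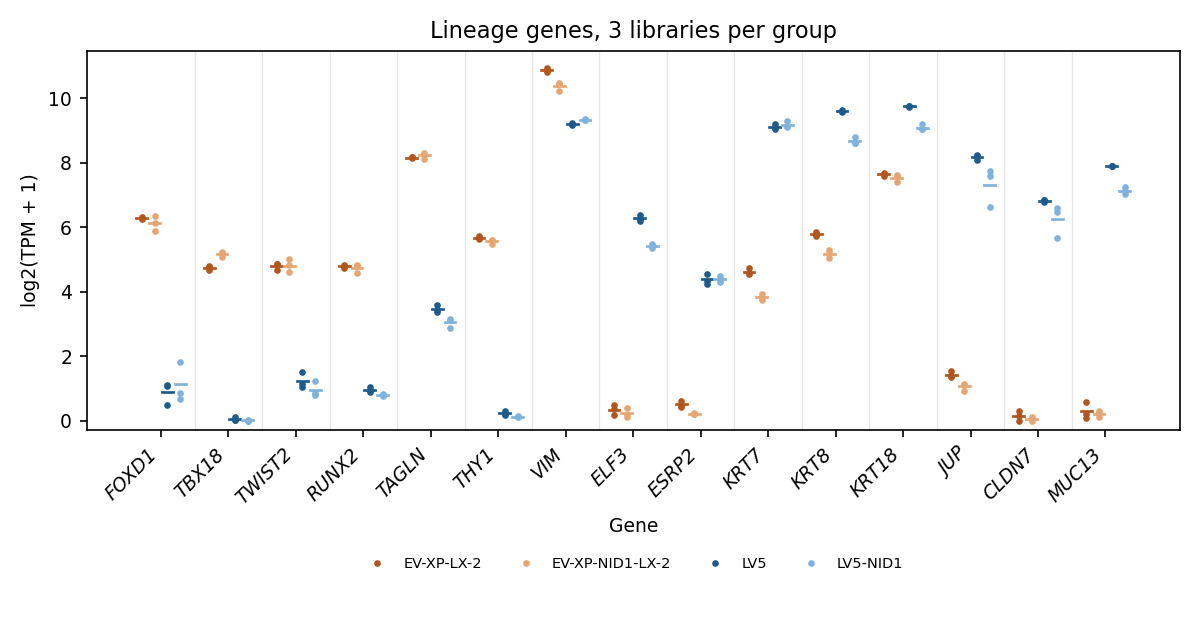
Level of 15 lineage genes in each of 12 libraries, as log2(TPM + 1), with a bar at the mean of 3 libraries; orange groups are LX-2 and blue groups LV5, the paler shade being the treated group. FOXD1, TBX18 and THY1 stand high in both LX-2 groups, ELF3, JUP, CLDN7 and MUC13 stand high in both LV5 groups, and VIM and KRT18 are expressed in all 4.

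Of 16 compared fibrillar and bead-forming collagens 7 were strongly higher in LX-2 and none in LV5, against 3.65% and 2.41% of all genes. The list median was 2.34, and these counts were the same under every scaling tried. COL1A1, the main chain of type I collagen, read 204.6, 198 and 205.6 TPM in LX-2 against 10.1, 13.7 and 8.15 TPM in LV5. Its partner chain COL1A2 was far less abundant than COL1A1 in LX-2, at 13.01 ± 0.501 TPM, and stood at 0.00667 ± 0.0115 TPM in LV5. COL5A2 read 120.9, 115.1 and 120.6 TPM against 0.04, 0.17 and 0.02 TPM, and COL6A2 was at 112.3 ± 2.3 against 0.103 ± 0.0493 TPM. COL3A1, COL6A3 and COL8A1 completed the 7. COL7A1, the anchoring fibril collagen of epithelial basement membranes, was the most abundant collagen of the list that leaned to LV5, at 4.43 times the LX-2 level, short of 8-fold.

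Matricellular and elastic fibre genes were divided 10 to LX-2 and 3 to LV5 among 31 compared, against 3.65% and 2.41% of all genes. With median-ratio scaling the counts were 8 and 3. SPARC, a collagen-binding glycoprotein, read 495.6, 484 and 489.8 TPM in LX-2 against 0.24, 0.01 and 0.36 TPM. Fibronectin (FN1) was at 486.5 ± 16.2 against 6.003 ± 0.918 TPM, a ratio of 81.0. THBS2, TNC, POSTN and VCAN, all provisional-matrix or wound-matrix proteins, were each below 0.1 TPM in LV5, and THBS2 read 173.6, 163.4 and 167.1 TPM in LX-2. The 3 genes on the LV5 side were fibulin family members FBLN1 (208.2 ± 0.58 against 6.31 ± 0.465 TPM) and EFEMP1 (193 ± 9.11 against 17.8 ± 2.53 TPM) and the microfibril gene MFAP2.

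Of 22 compared basement membrane genes 2 were strongly higher in each line, against 3.65% of all genes in LX-2 and 2.41% in LV5. The list median of 0.18 changed sign with median-ratio scaling. The LX-2 count fell from 2 to 1 without EV-XP-LX-2 replicate 3 or LV5 replicate 2 and under median-ratio and quantile scaling, and was 0 in the treated libraries. The type IV collagen chain COL4A2 was close in both, at 168.6 ± 5.1 and 189.7 ± 12.7 TPM. LAMA4 and NID1 were on the LX-2 side, COL15A1 (49.2 times higher in LV5) and COL4A3 on the other. NID1, the laminin- and collagen IV-binding glycoprotein the series is built around, read 25.1, 25.1 and 26 TPM in the LX-2 controls and 0, 0.04 and 0.02 TPM in LV5. In the treated groups the order turned, with 20.8 ± 2.44 TPM in EV-XP-NID1-LX-2 and 359.9 ± 16.6 TPM in the overexpressing LV5-NID1. SW480-P was at a signal of 0.501 ± 0.130 and SW480-LM3 at 46.9 ± 2.21.

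Matrix-degrading enzymes leaned to LX-2, and collagen-modifying enzymes did so less clearly. The crosslinking oxidases LOX and LOXL2 were 24.96 and 13.99 times higher in LX-2, and 3 of 20 compared processing enzymes were strongly higher there against 1 in LV5. Their list median of 0.70 stood near the 0.46 of all genes. With median-ratio scaling 2 and 1 passed, and the list median was 0.21 against -0.01 for all genes. Of 21 compared proteases and inhibitors 9 were strongly higher in LX-2, 7 with median-ratio scaling, and 1 in LV5, against 3.65% and 2.41% of all genes. The interstitial collagenase MMP1 read 1139, 1194 and 1152 TPM in LX-2 and 0.31, 0.09 and 0.1 TPM in LV5. The gelatinase MMP2 and its membrane activator MMP14 were at 128.6 ± 10.8 and 125.9 ± 11.1 TPM in LX-2 and below 0.3 TPM in LV5. The plasminogen activators PLAU and PLAT were also strongly higher in LX-2, PLAU at 213.1 ± 10.8 against 3.41 ± 0.997 TPM (62.4 times), as was SERPINE2, a serine protease inhibitor. The tissue inhibitors TIMP1 and TIMP2 were abundant in both lines, at 560.1 against 189.1 TPM and 210.5 against 159.3 TPM.

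**Figure D3:**
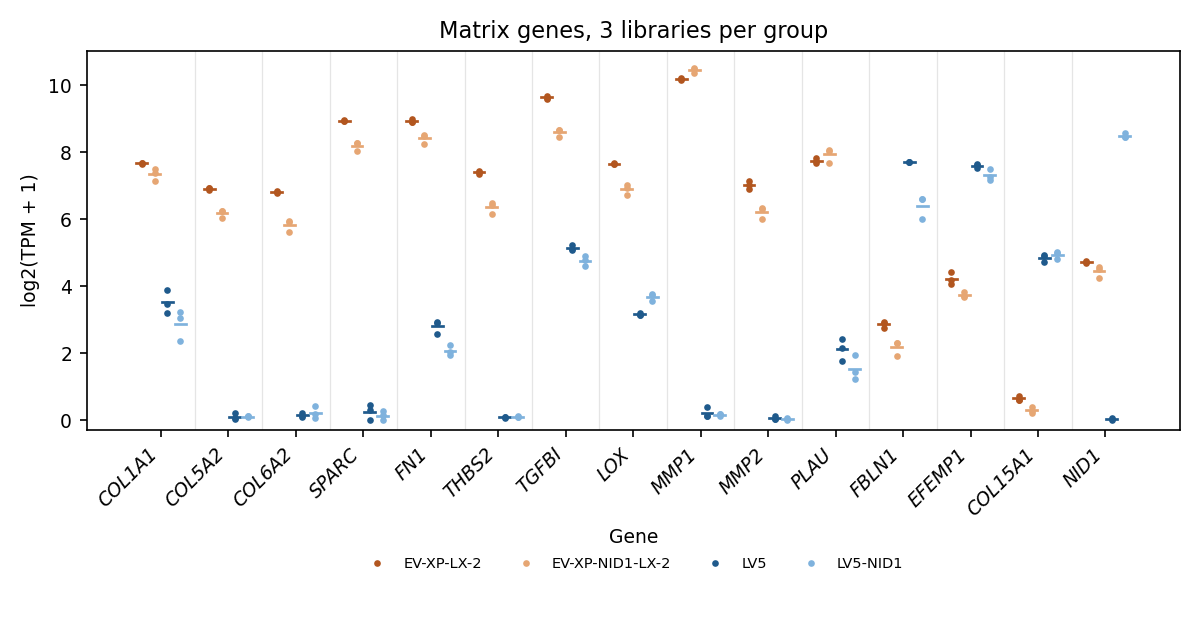
Level of 15 matrix genes in each of 12 libraries, as log2(TPM + 1), with a bar at the mean of 3 libraries. Collagens, SPARC, FN1, THBS2, MMP1 and PLAU stand higher in both LX-2 groups, FBLN1, EFEMP1 and COL15A1 in both LV5 groups, and NID1 is near 0 only in LV5 among the 4 groups.

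Among 15 compared integrins 1 was strongly higher in each line: ITGA7, a laminin receptor of muscle, in LX-2 and ITGB4, the hemidesmosomal laminin receptor chain, in LV5. With 3.65% and 2.41% of all genes strongly higher in LX-2 and LV5, single members say little of the list. ITGB4 lay at the mark (-3.01) and fell short of it without EV-XP-LX-2 replicate 2, LV5 replicate 1 or LV5 replicate 2, which left 0 on the LV5 side. ITGB1 was at 670.9 ± 8.96 and 407.6 ± 10.3 TPM. Of 26 receptor tyrosine kinases 4 were strongly higher in LX-2, MERTK, the collagen receptor DDR2, EPHB2 and PTK7, and 1 in LV5, MST1R, the receptor of macrophage-stimulating protein, at 32.4 ± 3.92 against 0.313 ± 0.250 TPM. The LV5 count is near the share of all genes, and the list median of 0.20 changed sign with median-ratio scaling. EGFR and MET were within 2-fold.

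In the TGF-beta and BMP pathway 3 of 23 compared genes were strongly higher in LX-2 and 1 in LV5, against 3.65% and 2.41% of all genes. The activin subunit INHBA read 115.6, 115.1 and 117.9 TPM in LX-2 against 0.12, 0.12 and 0.19 TPM. GREM1, described above, was on the same side, while BMP2, a ligand that GREM1 binds, read 25.4, 26 and 26.1 TPM in LV5 and 0.05 ± 0.01 TPM in LX-2. TGFB1 was 6.31 times higher in LX-2, short of the mark. Of 8 compared Wnt ligands 2 were strongly higher in LX-2 and 1 in LV5. Of 13 compared Wnt target and feedback genes the counts were also 2 and 1. With median-ratio scaling both lists gave 2 and 2. Among Wnt ligands WNT5B was at 33.8 ± 3.61 TPM in LX-2 against 0.03 ± 0.0265 TPM, WNT10B at 69.9 ± 1.68 TPM in LV5 against 0.293 ± 0.0551 TPM, and the secreted antagonist SFRP1 was on the LX-2 side. The Wnt feedback inhibitor NKD2 was at 25.4 ± 0.101 TPM in LV5 and 0.00667 ± 0.0115 TPM in LX-2, and the Wnt modulator DKK3 was 172 times higher in LX-2. Of 18 YAP target genes 5 were strongly higher in LX-2, against 3.65% of all genes, namely NT5E, CYR61, ANKRD1, F3 (tissue factor) and DLC1. None was strongly higher in LV5.

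Of 39 cytokines and chemokines 28 were compared, and 14 were strongly higher in LX-2, against 3.65% of all genes, with 1 in LV5 and a list median of 3.08. The 14 and the 1 were reached under every scaling tried. Several of the 14, such as IL1B and CSF2, passed the 1 TPM filter only through LX-2, so their direction was fixed. The same holds for the 1 in LV5, IL18. These counts describe the compared members and not the list. CXCL8 (ENSG00000169429), the neutrophil chemoattractant interleukin 8, read 2832, 3736 and 3680 TPM in LX-2 and 1.8, 2.17 and 2.14 TPM in LV5, and was the fifth most abundant LX-2 gene outside the mitochondrial and ribosomal classes. IL1B, the inflammasome-processed interleukin 1 beta, read 1148, 1124 and 1105 TPM against 0.39, 0.36 and 0.73 TPM. IL6 read 362.9, 396.6 and 365.4 TPM against 4, 4.02 and 3.22 TPM. The lowest LX-2 library exceeded the highest LV5 library by a wide margin in each.

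The neutrophil-attracting chemokines CXCL1, CXCL2 and CXCL3 were at 203.7 ± 15.7, 172.1 ± 15.01 and 48.0 ± 3.90 TPM in LX-2 and at 0.0133 ± 0.0231, 4.91 ± 0.602 and 1.06 ± 0.216 TPM in LV5. CSF2, the granulocyte-macrophage growth factor, read 185.1, 219.3 and 204 TPM against 0, 0.07 and 0 TPM. The gp130 ligands IL11 and LIF were 159 and 12.7 times higher in LX-2, and the monocyte chemoattractant CCL2 16.5 times. IL1A, FGF5, VEGFC and HBEGF complete the 14. The exception was IL18, an interleukin 1 family cytokine typical of epithelia, which read 314.8, 335.8 and 333.7 TPM in LV5 and 0.1, 0.28 and 0.29 TPM in LX-2. IL32 and VEGFA were abundant in both lines, IL32 at 174.5 ± 4.87 and 186.1 ± 3.93 TPM. In the treated libraries CXCL8 was at 4531 ± 321.7 and 2.14 ± 0.202 TPM, so the gap was also present there.

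Since so many of these genes were high together, their promoters were read from RefSeq (GRCh38.p14). Of the 14 genes 12 had an entry. In the 250 bases before the start site, 5 of the 12 (41.7%) held the NF-kB motif GGNNTTTCC on either strand, against 7.98% of the 10625 compared genes with an entry, 10.4% of 412 strongly higher in LX-2 and 9.09% of 220 strongly higher in LV5. The 130 bases next to the start are shown for these 5 genes, 5′ to 3′ on the gene's strand, with motif matches in capitals.
CXCL1: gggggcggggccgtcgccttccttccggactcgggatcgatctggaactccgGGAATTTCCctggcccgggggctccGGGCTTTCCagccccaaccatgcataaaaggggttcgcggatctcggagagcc
CXCL2: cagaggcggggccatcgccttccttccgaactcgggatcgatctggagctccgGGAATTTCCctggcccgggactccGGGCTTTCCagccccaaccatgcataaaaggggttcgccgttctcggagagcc
CXCL3: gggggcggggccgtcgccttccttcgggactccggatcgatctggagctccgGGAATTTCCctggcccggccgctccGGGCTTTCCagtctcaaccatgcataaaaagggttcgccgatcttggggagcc
CXCL8: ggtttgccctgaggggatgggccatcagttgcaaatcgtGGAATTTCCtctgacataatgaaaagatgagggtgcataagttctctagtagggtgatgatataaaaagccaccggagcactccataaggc
IL6: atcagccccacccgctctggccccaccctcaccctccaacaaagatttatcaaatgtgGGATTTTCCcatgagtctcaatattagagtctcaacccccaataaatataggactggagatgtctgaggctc
CXCL1 (chr4:73869263-73869392, plus strand), CXCL2 (chr4:74099196-74099325, minus strand) and CXCL3 (chr4:74038690-74038819, minus strand) lie in 1 chemokine cluster, are near-identical over this stretch and share 2 matches each, so they are not independent cases. CXCL8 (chr4:73740439-73740568, plus strand) and IL6 (chr7:22727070-22727199, plus strand) hold 1 match each, starting 91 and 72 bases before the start site. The motif shown was picked after 8 motifs had been searched. The others were a longer form with a further G at its 5′ end, which overlaps it (33.3% of the 12, 2.55% of all), AP-1 as TGANTCA (25% and 6.27%), SP1 as GGGCGG (50% and 74.2%), an E-box as CACCTG (8.33% and 20.5%), a TEAD motif as GGAATG (0% and 13.3%), an HNF1 motif as GTTAAT (0% and 5%) and the CArG box (0% and 1.38%). Among the 412 genes strongly higher in LX-2 and the 220 in LV5, the E-box was at 25% and 34.1% and AP-1 at 11.7% and 7.27%. SP1 was at 72.1% and 63.6%, TEAD at 15.8% and 16.4%, and HNF1 at 6.31% and 7.27%. CArG was at 3.16% and 0.909%, and the longer NF-kB form at 3.88% and 3.18%. A match describes letters in the reference and says nothing about binding in these cells.

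**Figure D4:**
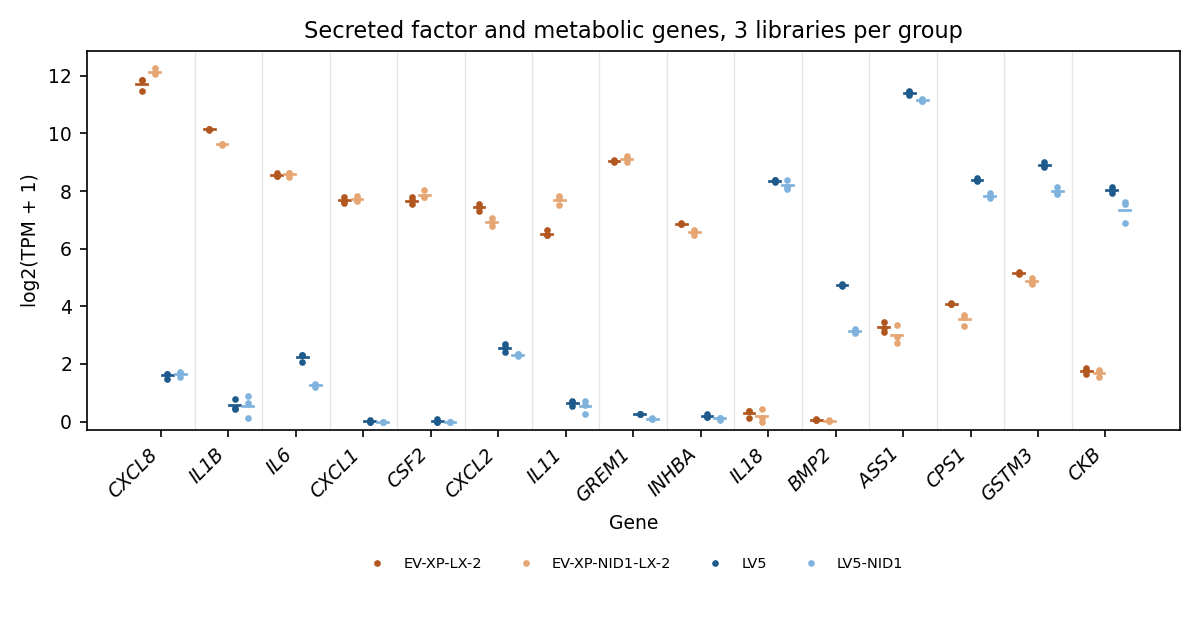
Level of 9 secreted factors high in LX-2, of IL18 and BMP2, and of 4 metabolic genes in each of 12 libraries, as log2(TPM + 1), with a bar at the mean of 3 libraries. From CXCL8 to INHBA all LX-2 libraries lie above all LV5 libraries, and from IL18 to CKB all LV5 libraries lie above all LX-2 libraries.

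In the glycolysis list 1 of 25 compared genes was strongly higher in each line, a share near that of all genes (3.65% and 2.41%). The glucose transporter SLC2A3 was 28.5 times higher in LX-2 and PDK4, the kinase that shuts pyruvate dehydrogenase, was at 53.6 ± 2.22 TPM in LV5 and 0.237 ± 0.0503 TPM in LX-2. GAPDH, at 4795 ± 127 and 5947 ± 167.3 TPM, was near equal. In the urea cycle, proline and glutamine list 2 of 21 were strongly higher in LV5 and none in LX-2. ASS1, argininosuccinate synthase, read 2551, 2759 and 2858 TPM in LV5 against 8.44, 7.7 and 10.1 TPM in LX-2, and CPS1, the first enzyme of the cycle in mitochondria, read 327.8, 334.1 and 346.5 TPM against 16, 16.3 and 16 TPM.

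Glutathione and drug metabolism was the metabolic list with the most strongly different members, 9 of 34 higher in LV5 and 2 in LX-2. The shares over all genes were 2.41% and 3.65%, so the LX-2 count says little of the list. The glutathione transferases GSTM1 and GSTM3 were at 109.9 ± 2.5 and 479.6 ± 29.1 TPM in LV5 against 0.457 ± 0.0322 and 34.5 ± 1.15 TPM in LX-2. The closely similar GSTM genes can share reads, and GSTM2 ran the other way (26.7 TPM in LX-2, 1.67 TPM in LV5). The aldo-keto reductase AKR1C3 was 58.4 times higher in LV5, and the aldehyde dehydrogenase ALDH3A1 was at 51.3 ± 3.13 against 0.0433 ± 0.0751 TPM. CYP1A1, a target of the aryl hydrocarbon receptor, was 11.4 times higher in LX-2, a difference that did not reach 8-fold on the log2(TPM + 1) scale with median-ratio scaling, where 0 of the list were strongly higher in LX-2.

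Few retinoid and lipid storage genes were strongly different, 2 of 24 compared, and 22 were in neither group. Among all genes 2.41% were strongly higher in LV5. In the retinoid and lipid storage list, the part of stellate biology tied to the quiescent state, none of 24 was strongly higher in LX-2, while PPARG (19.2 ± 0.0964 against 0.43 ± 0.11 TPM) and the fatty acid carrier FABP3 were strongly higher in LV5. Creatine kinase B (CKB) was 109.4 times higher in LV5.

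HOX genes record position along the body axis, and most of those compared were in neither group. Strongly higher in LX-2 were 2 of 9 HOXB and 2 of 4 HOXD genes, and in LV5 1 of 9 HOXA and 1 of 8 HOXC genes, against 3.65% and 2.41% of all genes. In the treated libraries HOXB gave 1 and HOXC 0, and HOXA gave 2 without EV-XP-LX-2 replicate 3 or LV5 replicate 3. HOXB2 (32.2 ± 1.78 against 0.06 ± 0.0436 TPM), HOXB4, HOXD10 (13.5 ± 0.761 against 0.06 ± 0.0529 TPM) and HOXD11 were strongly higher in LX-2. HOXA10 (31.4 ± 1.34 against 0.643 ± 0.107 TPM) and HOXC10 (90.2 ± 2.02 against 9.93 ± 1.83 TPM) were strongly higher in LV5. Among 25 interferon and antigen presentation genes, BST2 and OAS1 were strongly higher in LV5 and none in LX-2, with BST2 at 198.3 ± 11.9 against 17.4 ± 1.56 TPM.

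Several lists held no strongly different member. None of 29 compared cell cycle genes, 30 ribosomal protein genes (a list without RPL9, which passed and is uncertain, as said above), 24 common reference genes or 13 mitochondrially encoded mRNAs passed. The mitochondrial mRNAs had a median of -1.36 and the ribosomal protein genes of -0.62, both lower in LX-2 under every scaling in which they were kept, and the cell cycle median of 0.14 changed sign. PPIA, often used as a reference, was 2.44 times higher in LV5.

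**Figure D5:**
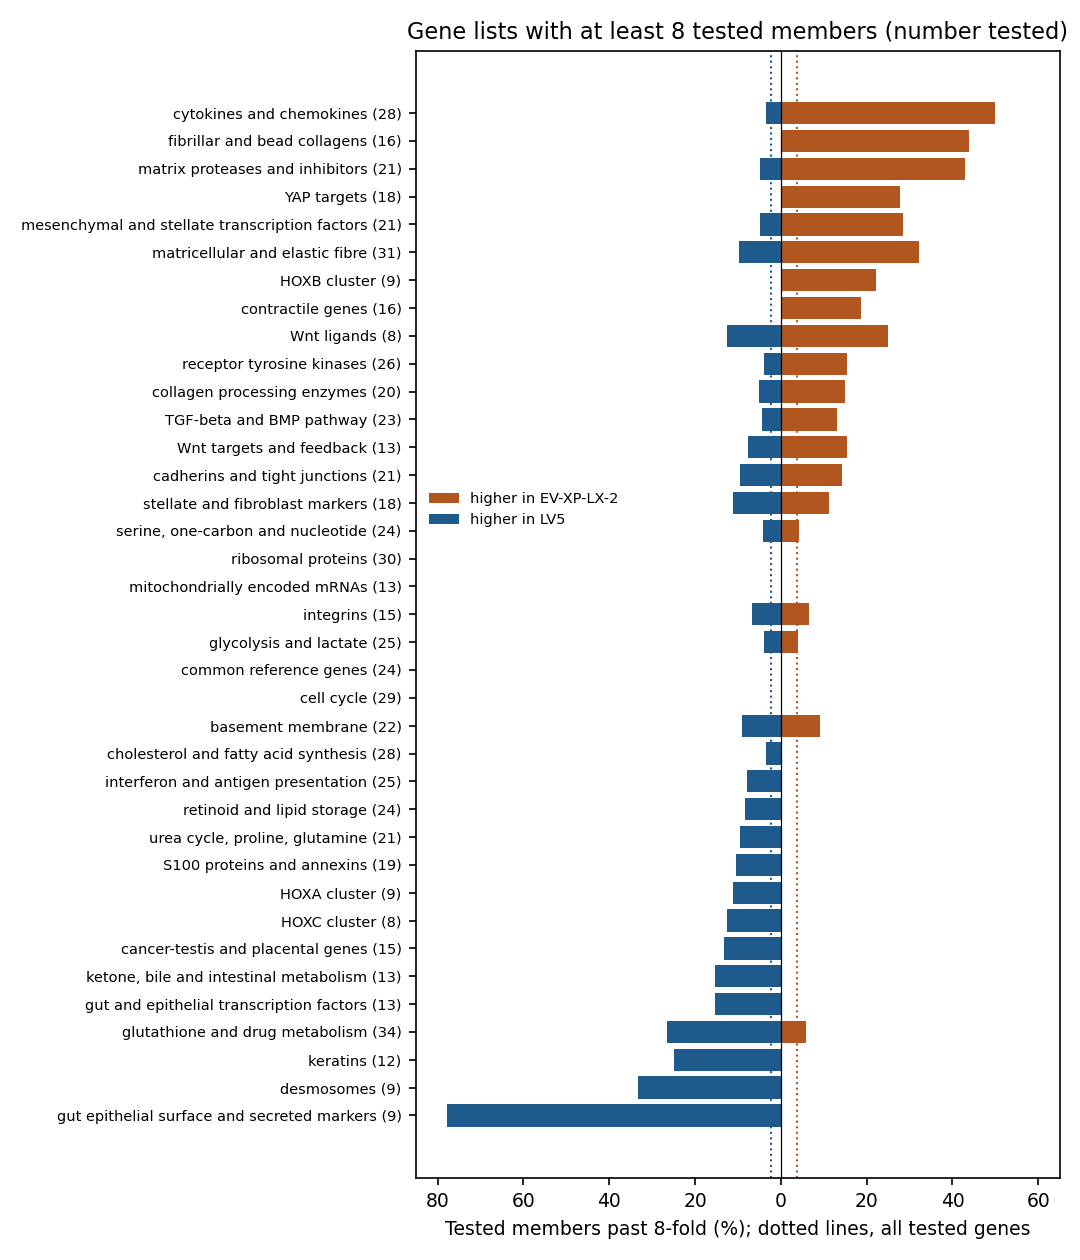
Share of compared members of each gene list that were past 8-fold in favour of LX-2 (orange, to the right) or LV5 (blue, to the left), for lists with at least 8 compared members, whose number is in parentheses. Dotted lines give the share over all genes, 3.65% and 2.41%, and cytokines, collagens and proteases reach farthest to the right, gut surface markers and desmosomes farthest to the left.

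Markers of other cell types were at low sums in both lines, with single exceptions. Hepatocyte markers summed to 20.7 to 22.5 TPM in LX-2 and 1.14 to 1.83 TPM in LV5, with 1 of 7 at 1 TPM in each line, which was SERPINA1. Endothelial markers summed to 49 to 50.1 and 60.8 to 65.7 TPM, from TEK and ROBO4 in LX-2 and ESAM in LV5, with CDH5 and VWF below 1 TPM in both. Leukocyte markers summed to 44.7 to 48.7 and 4.81 to 6.76 TPM, mostly from CD68, a lysosomal protein that is not restricted to macrophages, with PTPRC below 1 TPM in both. Cholangiocyte markers summed to 30.5 to 33.2 and 547 to 605 TPM, nearly all of it KRT7, and neural markers to 26.8 to 28.3 and 48.2 to 50.7 TPM, mostly TUBB3. What part other cells have in any result was not tested.

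SW480 libraries made apart from LV5 were used to see where these genes are present. Of the 382 genes strongly higher in LV5, 342 (89.5%) were at a signal of 1 or more in all 3 SW480-P libraries, against 77.7% of all compared genes and 44.1% of the 578 genes higher in LX-2. In SW480-LM3 the shares were 57.9%, 75% and 53.8%. The 8-fold rule asks for a level well above 1 TPM in the higher line, and all compared genes include some near 1 TPM. They are therefore no background matched for level, and what part level has in these shares was not tested. FOLR1 was at a signal of 1773 ± 54.8 in SW480-P and 50.7 ± 1.53 in SW480-LM3, and IL18 at 74.3 ± 3.38 and 1.39 ± 0.596. ELF3 and KRT8 were high in both, at 34.6 ± 2.63 and 79.8 ± 4.09 for ELF3. That table leaves out genes low in all of its libraries, so a missing gene counts here as under the mark.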

How the data were processed

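RNA was poly(A)-selected, per the labels' protocols. The submitters' processing notes name HISAT2 2.1.0 and Bowtie2 2.3.5 without a role, and the sources used here give no counting tool, genome build or annotation. The LX-2 and LV5 values are TPM as deposited by the authors in separate tables of 31585 and 32555 genes, of which 805 and 1063 without an Ensembl identifier were left out. The values of the SW480-P and SW480-LM3 table are a signal normalized by the authors, used for presence at 1 or more and for levels within that table.

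Tables were joined by unversioned identifier with Python 3.11.15 and pandas 2.3.3. Genes needed 1 TPM in 3 of 6 libraries. Differences are means of log2(TPM + 1), which understates changes of low genes. A gene was past 8-fold at a difference of at least 3 without overlap of libraries, and a ratio of means is given only where the lower mean is at least 0.1 TPM. No test was made across tables. The rule was tested on simulated data. Levels are mean ± SD over 3 libraries. The text names NID1, members of 44 gene lists, the 12 largest differences per direction with at least 50 TPM in the higher line, and the 6 most abundant genes per line. RPL9 and RPL39 were added after their values were seen, as were the promoter motifs. Some genes that these rules take are not reported here. Members and lists were chosen with earlier results of these data known. Alternatives were other pseudocounts, filters, folds and scalings, each library left out, the treated libraries and, added after seeing the data, protein-coding genes only.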

Additional observations from a re-analysis of the deposited data

Results flagged for a closer look

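Some genes were listed in 1 of the tables only and so entered no comparison. In EV-XP-LX-2, BEX1 was at a mean of 372.0 TPM, PDPN (podoplanin, a stromal and lymphatic glycoprotein) at 91.03 TPM and CXCL12 (a stromal chemokine) at 45.86 TPM, with no entry for them in the LV5 table. In LV5, GAGE12H (a cancer-testis gene with near-identical copies) was at 140.8 TPM, PDZK1IP1 at 52.05 TPM and the protease TMPRSS3 at 49.56 TPM, with no entry in the LX-2 table. Every gene in either table is above 0 in at least 1 of its libraries.

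NID1 differed between the lines in opposite directions. Its log2 difference, LX-2 minus LV5, was 4.69 in the control libraries and -4.06 in the treated libraries, and every library moved with its group. The difference between these contrasts was not tested. LV5-NID1 carries added NID1.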

How the results depend on the processing

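The counts depended on how low values were damped and on the fold asked for. Genes higher in LX-2 (578) numbered 1340 with a pseudocount of 0.1, 167 with 5, 1541 at 4-fold and 255 at 16-fold, and genes higher in LV5 (382) numbered 938, 130, 850 and 187. Over all gene lists, the 84 members higher in LX-2 became 46 with a pseudocount of 5, 135 at 4-fold and 50 at 16-fold, and the 60 higher in LV5 became 92 with a pseudocount of 0.1, 35 with 5, 99 at 4-fold and 37 at 16-fold. The other filters and scalings, the treated libraries, protein-coding genes only and each library left out kept these counts within 1.5 times, with 568 to 586 and 378 to 392 when a library was left out. Median-ratio scaling gave 427 and 510, quantile normalization 430 and 507, and 8 of 44 list medians changed sign under a scaling. Of 157 named genes past 8-fold, 141 stayed past it with median-ratio scaling, 145 with quantile normalization, 94 with a pseudocount of 5 and 136 in the treated libraries. NID1 reversed in the treated libraries, at -4.06. No paired analysis was possible because the comparison comes from no test and replicate numbers of separate experiments are only names. With TPM of unknown depth, levels under about 1 TPM carry no counting error that could be given.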
